A study of Mus musculus with 5 samples.

Results

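The genes described here are 35 genes of the unfolded protein response and of protein folding in the endoplasmic reticulum, followed in cartilage from the condyle of the mouse mandible, where the lower jaw meets the skull. They were listed by name for their known roles, with earlier results of these data known. A gene counts as measured where the platform annotation gives a row of the deposited table that gene symbol and no other, and a gene with several rows is represented by its brightest row. This gave 34 of the 35 genes, among 19938 genes tested. Fkbp10, a collagen chaperone, has no such row and is not analysed here. The study set 2 mice that lack the collagen receptor kinase DDR-1 (gene Ddr1) against 3 wild-type mice, all of strain 129/Sv, and the labels name no treatment. The sources used here do not give age, sex or the construction of the knockout allele. Each array comes from a mouse with a number of its own, knockout 2 and 5 and wild type 3, 4 and 6. Total RNA was taken directly from the dissected tissue and hybridised to Affymetrix mouse gene 1.0 ST arrays. Levels are log2 signals as deposited, and a change is knockout minus wild type on that scale, with its standard error (SE) from limma. The array names carry 1 of 2 dates. Knockout 2 and wild type 3 share the first date (run 1), and knockout 5 and wild types 4 and 6 share the second (run 2).

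Cells that secrete large amounts of matrix fold their proteins in the endoplasmic reticulum. Unfolded protein activates the sensors PERK, IRE1 and ATF6, which act through the transcription factors ATF4, spliced XBP1 and cleaved ATF6 on genes of chaperones, disulfide isomerases and degradation. Procollagen needs further help, since its chains are hydroxylated, assembled into a triple helix and held by the collagen chaperone HSP47. Chondrocytes make much collagen, and mutations that keep collagen in the endoplasmic reticulum are a known cause of chondrodysplasia.

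Promoter letters show which of the genes carry known stress elements. RefSeq promoters (GRCm38.p6) run from 250 bases before to 50 after a start site, and 29 of the 35 genes have an entry. Atf6, Creb3l1, Hyou1, Manf, Fkbp10 and Plod2 have none. The endoplasmic reticulum stress element (ERSE), which ATF6 is known to bind with NF-Y, was searched on both strands as CCAAT followed after 9 bases by CCACG. It lay in 7 of the 29 gene promoters and in 0.119% of all 32851 promoters of this length. The stretches below show each match in capitals with up to 20 bases on each side, 5′ to 3′ along the gene, so that matches on the opposite strand read CGTGG first.

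Hspa5 (chr2:34772005-34772063, plus strand, match starting 65 bases before the start site): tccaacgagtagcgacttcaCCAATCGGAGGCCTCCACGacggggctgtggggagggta
Hsp90b1, distal (chr10:86705618-86705676, minus strand, 212 bases before): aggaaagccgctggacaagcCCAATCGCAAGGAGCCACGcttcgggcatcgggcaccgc
Hsp90b1, proximal (chr10:86705513-86705571, minus strand, 107 bases before): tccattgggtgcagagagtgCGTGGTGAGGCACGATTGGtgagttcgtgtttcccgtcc
Calr (chr8:84847055-84847113, minus strand, 162 bases before): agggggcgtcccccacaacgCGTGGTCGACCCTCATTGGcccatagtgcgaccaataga
Canx (chr11:50325780-50325838, minus strand, 145 bases before): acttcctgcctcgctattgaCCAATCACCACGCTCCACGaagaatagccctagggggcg
Creld2 (chr15:88819500-88819558, plus strand, 126 bases before): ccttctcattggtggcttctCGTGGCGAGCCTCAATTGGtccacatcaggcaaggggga
Dnajc3 (chr14:118937807-118937865, plus strand, 105 bases before): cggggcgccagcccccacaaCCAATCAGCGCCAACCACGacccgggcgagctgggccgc
Pdia6 (chr12:17266471-17266529, plus strand, 98 bases before): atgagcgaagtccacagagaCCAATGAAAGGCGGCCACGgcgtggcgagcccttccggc

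The core of the amino acid response element, through which ATF4 is known to act, was searched as TGATGNAA on both strands. It lay in 4 of the 29 promoters (Asns, Chac1, Herpud1 and Trib3) and in 3.97% of all promoters. The Trib3 match starts 14 bases after the start site, and the other matches are shown here in capitals.

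Asns (chr6:7693210-7693252, minus strand, 23 bases before the start site): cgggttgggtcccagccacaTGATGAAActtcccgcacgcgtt
Chac1 (chr2:119351029-119351076, plus strand, 193 bases before): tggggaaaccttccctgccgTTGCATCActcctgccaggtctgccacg
Herpud1 (chr8:94386297-94386344, plus strand, 112 bases before): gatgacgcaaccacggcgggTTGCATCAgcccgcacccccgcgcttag

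A variant of the stress element, ATTGGNCCACG, was added to the search after the data were seen. It lay in the promoters of Dnajb11, 7 bases after the start site, and of Herpud1, and in 0.0365% of all promoters.

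Herpud1, variant element (chr8:94386357-94386407, plus strand, 52 bases before the start site): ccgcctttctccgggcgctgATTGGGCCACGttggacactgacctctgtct

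The variant and the full element share no promoter among these genes, and the XBP1-type element TGACGTGG lay in none of the 29 and in 0.676% of all. None of these motifs was found in the promoters of Serpinh1, Plod1, Plod3, Ppib and Crtap, the collagen folding genes with an entry. A match is a string of letters in this window, and whether a factor bound there was not measured.

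The likeness between arrays was uneven, and this touches every value below. Over all genes, pairs of wild-type arrays had correlations of 0.984 to 0.993. Pairs of wild type with knockout 5 had 0.903 to 0.927, and pairs with knockout 2 had 0.814 to 0.837. The standard deviation of the log2 values over genes was lowest in knockout 2 (0.802), then knockout 5 (0.906), and 0.991 to 1.02 among wild types. Bright genes tended to read lower in knockout and dim genes higher: the median change was -0.13 in genes whose mean signal was at or above the median of all genes and 0.065 in the others. Ddr1 itself had a change of -0.14 (SE 0.058, limma's adjusted p = 0.377), or 0.029 after cyclic loess, and since it is not known here which probes lie in the deleted part, it does not check the labels. The 12 chondrocyte markers had wild-type means from 4.44 (Matn1) to 7.27 (Col2a1), with 6.02 for Sox9. The array medians over all rows were 4.97 to 5.03. Detection calls were not used, so the absence of a marker cannot be judged.

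Among the 34 measured genes, 2 fell in knockout cartilage and none rose at an adjusted p under 0.05 (limma). Both are collagen folding genes, Serpinh1 and Plod3. Over all genes 3.73% passed in either direction, 2.18% as falls and 1.55% as rises, so the count of 2 of 34 lies near the background. At an unadjusted p under 0.05, 8 members were lower and 2 were higher, beside 10.9% and 7.29% of all genes. The median change of the members was -0.14 on the log2 scale, beside -0.0083 over all genes. Of the 34 changes 24 lay below 0, beside 51.1% of all genes and 69.0% of those at or above the median signal. Without knockout 2 the members' median was -0.029, and without knockout 5 it was -0.12. Among the 20 members at or above the median signal the median was -0.29, beside -0.13 for all genes of that signal. Among the 14 dimmer members it was -0.020, beside 0.065 for all dimmer genes. After cyclic loess between the arrays the median of the brighter members was -0.14, beside -0.0024 for all genes of that signal. That of the dimmer members was then -0.097, beside -0.028. Scaling the arrays to a common spread gave -0.16, beside -0.015, for the brighter members and -0.064, beside -0.030, for the dimmer members.

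The positions of the single arrays, here and within the runs below, were counted on the deposited values and not after cyclic loess or scaling. Both knockout values lay below all wild-type values in 12 members, beside 18.6% of all genes, and above them in 2, beside 13.0%. Of the 20 brighter members 11 lay below in this way, beside 29.5% of all genes of that signal. The knockout arrays fell on opposite sides of wild type in Hspa5 and P4hb, 2 of 34 members, beside 13.9% of all genes. Wild-type values were identical on all 3 arrays in 10 members, beside 39.1% of all genes. They took only 2 distinct values in another 16, a count not made over all genes. Median polish, the last step of RMA, can give equal values to arrays with unequal probes, so a small SD need not mean that the mice were alike.

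**Figure D1:**
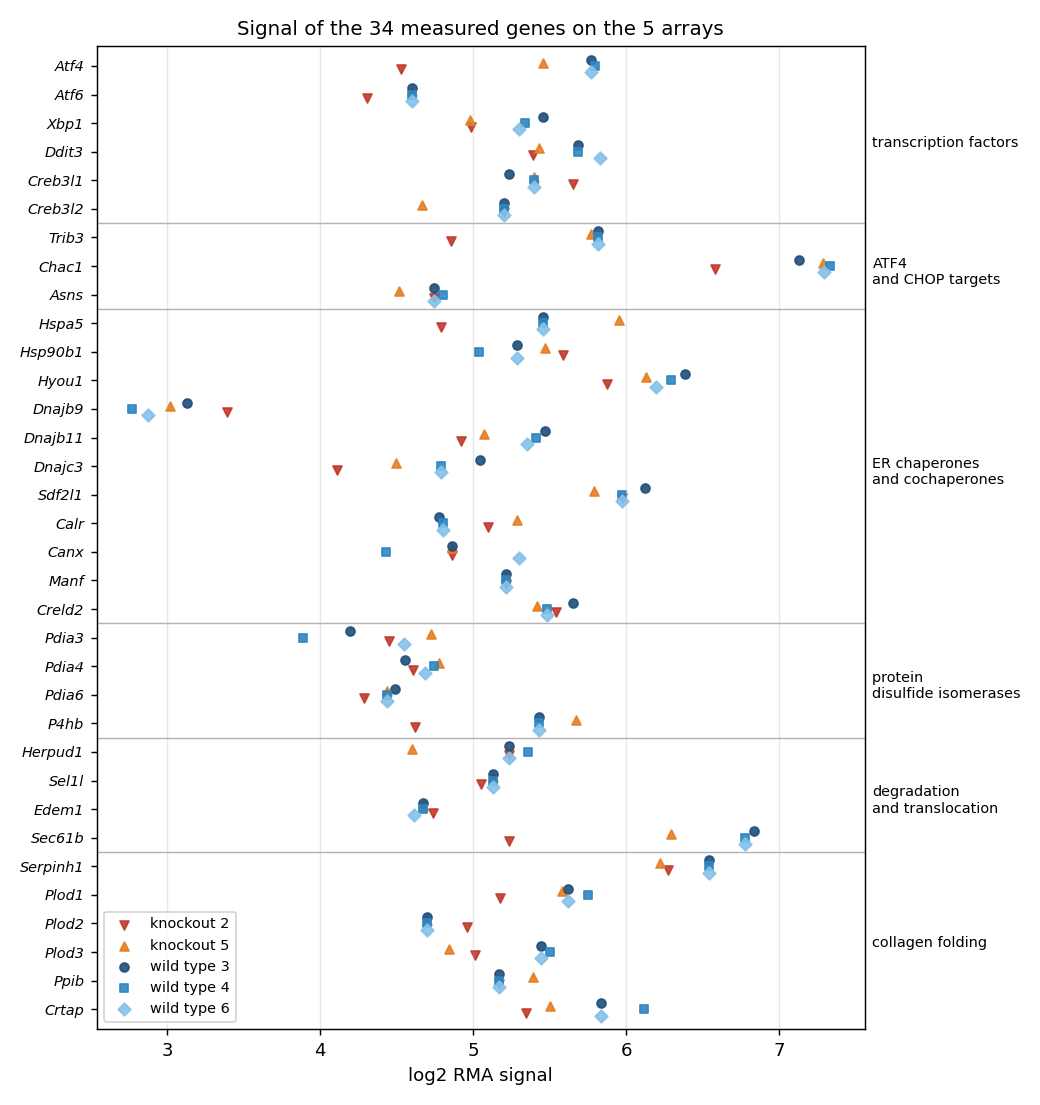
Log2 RMA signal (horizontal axis) of each of the 34 measured genes (rows, grouped by role) on the 5 arrays, with 1 marker per mouse and small vertical offsets so that equal values stay visible. Both knockout markers lie left of all wild-type markers in Atf4, Xbp1, Ddit3, Trib3, Hyou1, Dnajb11, Dnajc3, Sec61b, Serpinh1, Plod1, Plod3 and Crtap. Calr and Hsp90b1 have both to the right, while Hspa5 and P4hb have 1 on each side.

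The collagen folding genes held both calls. Serpinh1, which encodes HSP47, the chaperone that binds the procollagen triple helix, had values of 6.28 (knockout 2) and 6.22 (knockout 5), and all wild-type mice had 6.54. The knockout values lay below wild type and close to each other. Serpinh1 fell by 0.29 on the log2 scale (SE 0.024, limma's adjusted p = 0.0276), a level 1.22-fold higher in wild type, and its wild-type SD is 0. Plod3, a lysyl hydroxylase that also adds sugars to collagen, read 5.01 and 4.84 in knockout 2 and 5, against 5.44 in wild types 3 and 6 and 5.50 in wild type 4. It fell by 0.54 (SE 0.064, adjusted p = 0.0459), a level 1.45-fold higher in wild type, and the groups did not overlap.

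Both calls were lost in several alternative fits. With the array run as a block the changes were -0.30 (adjusted p = 0.0684) for Serpinh1 and -0.55 (adjusted p = 0.0995) for Plod3. After cyclic loess between the arrays, Serpinh1 had a change of only -0.084 (adjusted p = 0.617) and Plod3 kept -0.47 (adjusted p = 0.116). With arrays centred and scaled to a common spread the values were -0.039 (adjusted p = 0.852) and -0.52 (adjusted p = 0.092). Without wild type 3, 4 or 6 the adjusted p was 0.149, 0.185 and 0.205 for Serpinh1 and 0.205, 0.235 and 0.243 for Plod3. The size of the Plod3 change was thus kept under both scalings, and that of Serpinh1 was not.

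The other collagen folding genes did not pass. Crtap, a subunit of the complex that hydroxylates proline at the 3 position in collagen, had 5.34 and 5.50 in the knockout pair, with 5.84 in wild types 3 and 6 and 6.12 in wild type 4, a change of -0.51 (SE 0.12, adjusted p = 0.151) without overlap. Plod1, the lysyl hydroxylase of the helical part of collagen, had 5.17 (knockout 2) and 5.58 (knockout 5), with wild-type values from 5.62 to 5.75 and a change of -0.29 (SE 0.15, adjusted p = 0.399). Its knockout 5 value lay just under wild type, so the change rests mostly on knockout 2. Plod2, the lysyl hydroxylase of collagen telopeptides, read 4.70 on every array except knockout 2, where it read 4.96. Ppib, the prolyl isomerase cyclophilin B that works with Crtap, read 5.17 on every array except knockout 5, where it read 5.39. In each of these 2 genes a single knockout array departed from a value shared by the other 4.

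**Figure D2:**
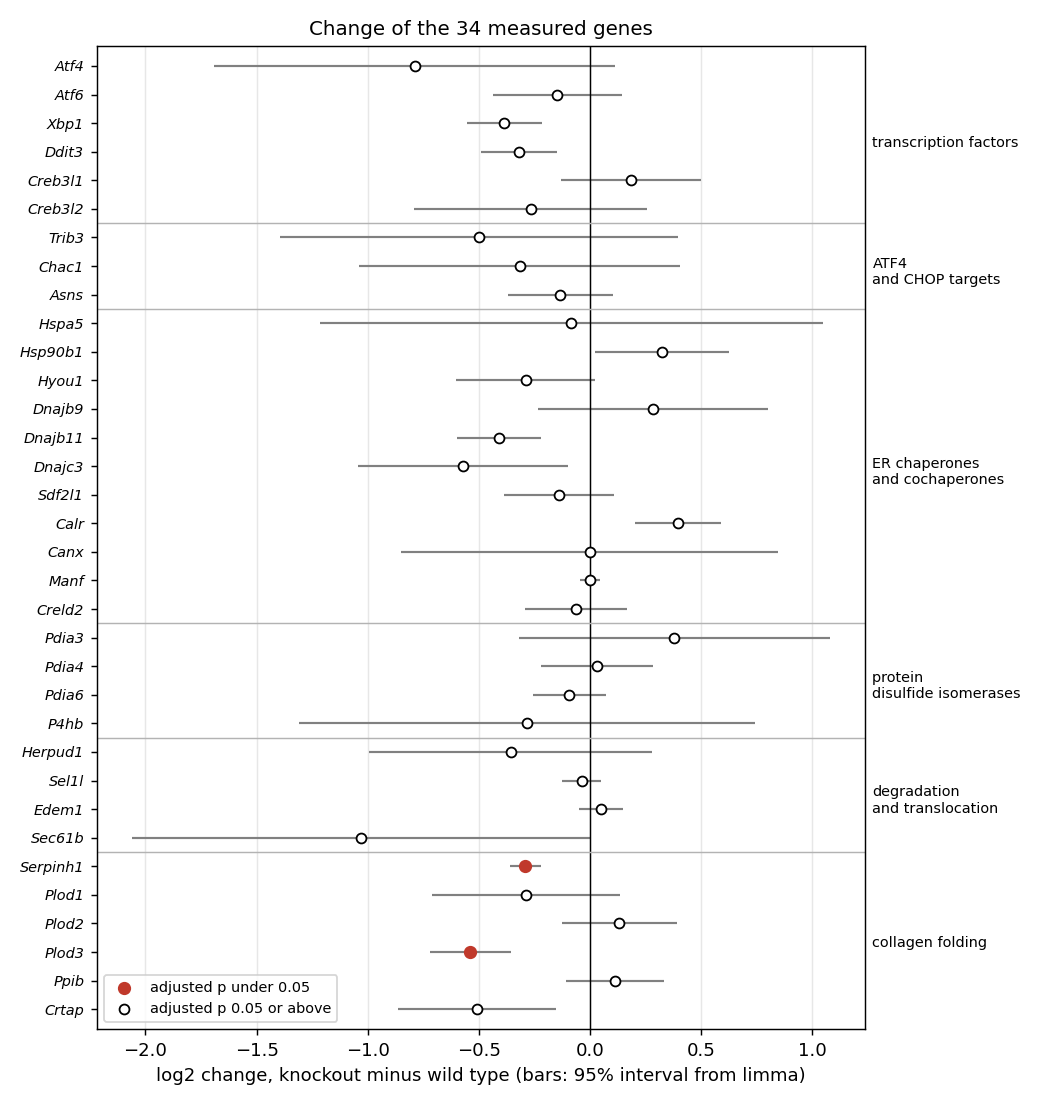
Change in log2 signal, knockout (n = 2) minus wild type (n = 3), for each of the 34 genes, with bars for the 95% confidence interval from limma. Filled red points mark Serpinh1 and Plod3, the genes with an adjusted p under 0.05, and the widest bars belong to Hspa5, P4hb and Sec61b, where the knockout mice differ from each other.

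Of the transcription factors, none passed, and 5 of 6 had a change below 0. Xbp1, the factor activated by IRE1, read 4.99 and 4.98 in knockout 2 and 5 against 5.46, 5.34 and 5.30 in wild types 3, 4 and 6. The groups did not overlap, and the change was -0.39 (SE 0.058, adjusted p = 0.0675). The table has 1 value for the gene, so spliced and unspliced Xbp1 cannot be told apart. Ddit3, which encodes the stress factor CHOP, read 5.39 and 5.43 in knockout against 5.68, 5.68 and 5.83 in wild type, a change of -0.32 (SE 0.060, adjusted p = 0.0954). The knockout mice lay close together in both genes. After cyclic loess and with a common spread of the arrays the changes were -0.32 and -0.37 for Xbp1 and -0.20 and -0.23 for Ddit3.

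Atf4, the factor whose translation rises when PERK is active, had the largest change of the 6 but an uneven one. Its values were 4.53 (knockout 2) and 5.45 (knockout 5), and 5.77 to 5.79 among wild types, with a change of -0.79 (SE 0.31, adjusted p = 0.339, 95% interval -1.69 to 0.11). Both knockout values lay below wild type, at differences of -1.25 and -0.33 from the wild-type mean. Atf6 read 4.31 in knockout 2 and 4.60 on the 4 other arrays. Creb3l2, a factor of chondrocytes that drives genes of vesicle transport, read 4.67 in knockout 5 and 5.20 on the 4 other arrays. Creb3l1, its relative known from collagen secretion in bone, was the 1 factor with a change above 0, with 5.66 and 5.40 in the knockout pair and wild-type values from 5.23 to 5.40 (0.18, SE 0.11, adjusted p = 0.399).

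None of the 3 targets of ATF4 and CHOP passed, and in 2 of them knockout 2 was the mouse that departed from wild type. Trib3, a pseudokinase that restrains ATF4 signalling, had 4.85 (knockout 2) and 5.77 (knockout 5), beside 5.81 in all wild-type mice (-0.50, SE 0.31, adjusted p = 0.399). Chac1, which degrades glutathione, had 6.58 (knockout 2) and 7.29 (knockout 5), beside wild-type values from 7.13 to 7.33 (-0.32, SE 0.25, adjusted p = 0.430). In both genes knockout 5 lay within 0.05 of the wild-type mean. Asns, asparagine synthetase, went the other way between the knockout mice, with 4.74 (knockout 2) and 4.51 (knockout 5) beside wild-type values from 4.74 to 4.80. The 4 genes with the amino acid response core in the promoter, these 3 and Herpud1, had changes from -0.50 to -0.13, all below 0, and none passed (lowest adjusted p = 0.399). With a common spread of the arrays the change of Chac1 was 0.037.

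Chaperones and their helpers were divided, with 7 of 11 changes below 0, 3 above and none past the threshold. Hspa5, which encodes BiP, the main HSP70 of the endoplasmic reticulum and the classical marker of the response, had 4.79 (knockout 2) and 5.95 (knockout 5), and 5.46 in all wild-type mice. The knockout mice departed from wild type in opposite directions, by -0.67 and 0.50. Its mean change was -0.085 (SE 0.39, adjusted p = 0.934), with a 95% interval from -1.22 to 1.05. Dnajb11, a cochaperone of BiP, had 4.92 and 5.07 in the knockout pair and 5.35 to 5.47 among wild types (-0.41, SE 0.066, adjusted p = 0.0736). Dnajc3, the BiP cochaperone p58IPK that also restrains PERK, read 4.11 and 4.50 against 5.04 in wild type 3 and 4.79 in wild types 4 and 6 (-0.57, SE 0.16, adjusted p = 0.203). Hyou1, an exchange factor for BiP, read 5.88 and 6.13 against 6.20 to 6.39 (-0.29, SE 0.11, adjusted p = 0.309), a change of -0.10 after cyclic loess and -0.097 with a common spread of the arrays. Both knockout mice lay below all wild-type mice in Dnajb11, Dnajc3 and Hyou1, which were not a list of their own.

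The lectin chaperone Calr and the HSP90 of the endoplasmic reticulum differed from Dnajb11, Dnajc3 and Hyou1. Calr, calreticulin, read 5.09 and 5.29 in knockout 2 and 5 against 4.78 in wild type 3 and 4.80 in wild types 4 and 6. Both knockout mice lay above wild type, by 0.30 and 0.49, and the change of 0.39 (SE 0.067, adjusted p = 0.0811) did not pass. Hsp90b1, which encodes GRP94, read 5.59 and 5.47 against 5.29, 5.04 and 5.29 (0.32, SE 0.11, adjusted p = 0.250), again without overlap. After cyclic loess and with a common spread of the arrays the changes were 0.41 and 0.39 for Calr and 0.41 and 0.40 for Hsp90b1. Canx, calnexin, the membrane-bound relative of calreticulin, read 4.86 in both knockout mice and in wild type 3, 4.43 in wild type 4 and 5.30 in wild type 6, so that both knockout values lay inside the wild-type range. Dnajb9, an inducible cochaperone, had 3.39 and 3.02 in the knockout pair and 2.77 to 3.13 among wild types. Its change of 0.28 (adjusted p = 0.399) turned to -0.34 after cyclic loess. Manf, a secreted stress protein, stood at 5.22 throughout. Sdf2l1 and Creld2, both stress-induced helpers of folding, had changes of -0.14 and -0.062 (adjusted p = 0.399 and 0.614), with knockout 5 below all wild-type values in each.

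The 7 genes with an ERSE in the promoter did not move together. Their changes ran from -0.57 for Dnajc3 to 0.39 for Calr, with 5 of 7 below 0, a median of -0.062 and none past the threshold. Hsp90b1, with 2 matches, and Calr, with 1, had values above wild type in both knockout mice, Dnajc3 had values below it in both, and Hspa5 had 1 on each side.

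Disulfide isomerases showed no call and no shared direction. P4hb, which serves both as an isomerase and as the beta subunit of collagen prolyl 4-hydroxylase, had 4.62 (knockout 2) and 5.67 (knockout 5), beside 5.43 in all wild-type mice (-0.28, SE 0.36, adjusted p = 0.609). Its order is that of Hspa5, with knockout 2 below and knockout 5 above wild type. Pdia3, the isomerase that works with calnexin and calreticulin, read 4.45 and 4.73 in knockout against 4.20, 3.88 and 4.54 in wild type (0.38, SE 0.24, adjusted p = 0.399). Pdia6 read 4.29 and 4.44 against 4.44 to 4.49 (-0.093, adjusted p = 0.399). Pdia4 read 4.61 and 4.77 against 4.55 to 4.74 (0.031, adjusted p = 0.851), but its dimmer second row had a change of 0.83. That row read 4.325 (knockout 2) and 5.40 (knockout 5), both above wild-type values of 3.86 to 4.19, and most of its change came from knockout 5.

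Among the genes of degradation and translocation, none passed. Herpud1, a stress-induced organiser of the degradation complex, had 5.24 (knockout 2) and 4.60 (knockout 5), beside wild-type values from 5.24 to 5.36 (-0.36, SE 0.22, adjusted p = 0.399). Sel1l, the partner of the ubiquitin ligase of that complex, read 5.05 in knockout 2 and 5.13 elsewhere. Edem1, which delivers misfolded glycoproteins for degradation, lay between 4.62 and 4.74 on all arrays. Sec61b, a subunit of the channel through which secretory proteins enter, had 5.24 (knockout 2) and 6.29 (knockout 5), beside wild-type values from 6.77 to 6.84. Its change of -1.03 (SE 0.36, adjusted p = 0.273) was the largest in size among the members, with both knockout mice below wild type. It came from 1 of its 3 rows, and the others had changes of -0.095 and 0.36, so the gene has no settled direction here.

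Collagen folding genes and stress-response genes, which are all the other members, were then set side by side. The median change was -0.29 over the 6 collagen folding genes and -0.14 over the 28 others. For knockout 2 alone, set against the wild-type mean, the medians were -0.36 and -0.064, and for knockout 5 alone they were -0.20 and -0.0096. In both knockout mice the collagen folding genes thus had the lower median. After cyclic loess the 2 medians were -0.13 and -0.14, and with arrays centred and scaled they were -0.13 and -0.087. With dim genes left out, both medians were -0.29. The difference between the sets thus depended on the scaling and on whether dim genes were kept. The difference was not tested.

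Within run 1 (knockout 2 minus wild type 3) and run 2 (knockout 5 minus the mean of wild types 4 and 6) the controls are different mice. In 15 of the 34 members the knockout was lower in both runs, beside 24.8% of all genes, and in 6 it was higher in both, beside 19.2%. Of the 20 brighter members 14 were lower in both runs, beside 37.5% of all genes of that signal. The runs opposed each other in Hspa5 and P4hb, 2 members, beside 20.1% of all genes. A difference of exactly 0 in at least 1 run was found in 11 members, and also in all genes outside the shares of 24.8%, 19.2% and 20.1%. Crtap had -0.49 in run 1 and -0.47 in run 2, Xbp1 had -0.47 and -0.34, and Ddit3 had -0.29 and -0.33. These 3 genes had like differences in both runs, whereas Atf4 had -1.25 and -0.33 and Sec61b -1.60 and -0.48. Of the members higher in both runs, Hsp90b1 also had like differences, 0.30 and 0.31, and Calr had 0.32 and 0.48. The others higher in both runs were Dnajb9, Pdia3, Pdia4 and Edem1.

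**Figure D3:**
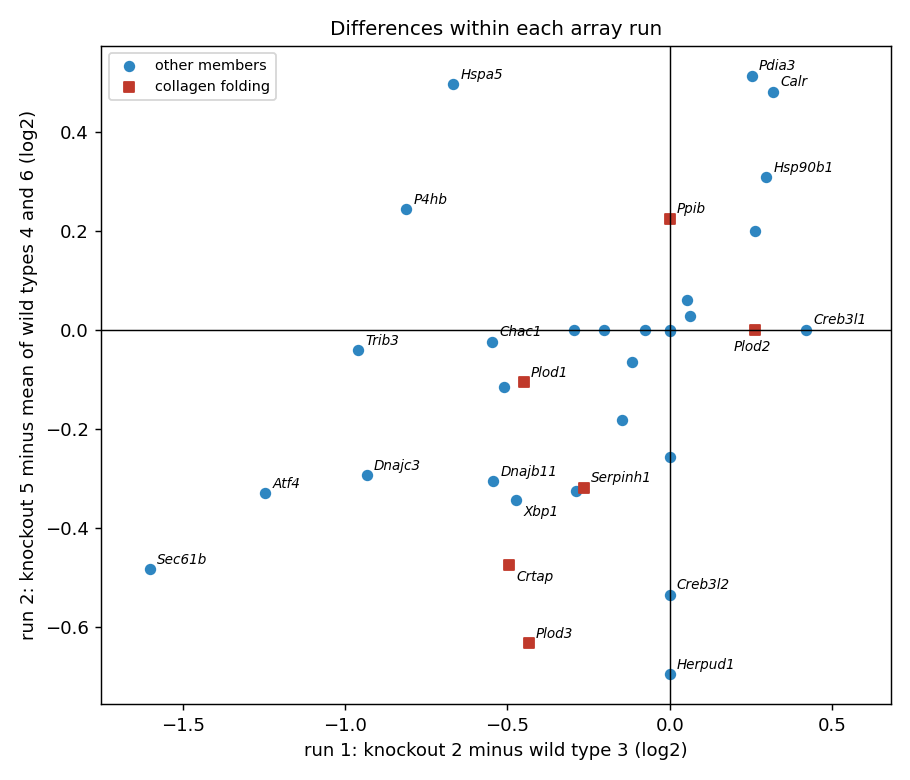
Difference in log2 signal within run 1 (horizontal axis) and within run 2 (vertical axis) for the 34 genes, with collagen folding genes as red squares and all others as blue circles. The lower left field holds the genes lower in knockout in both runs, among them Serpinh1, Plod1, Plod3 and Crtap, and Hspa5 and P4hb stand in the upper left.

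The other genes of the pathway, 95 of 101 listed with a row of their own, held 6 falls and 1 rise, with a median change of -0.095. Over all genes 2.18% fell and 1.55% rose, with a median of -0.0083. Among 14 further targets of ATF4 in amino acid supply, 2 fell and 12 did not pass. Slc3a2, the heavy chain of amino acid exchangers, fell from 5.49 ± 0.011 (SD, n = 3) to 5.04 ± 0.083 (SD, n = 2), a change of -0.46 (SE 0.043, limma's adjusted p = 0.0338). Mthfd2, a mitochondrial folate enzyme, fell from 6.46 ± 0.037 to 6.10 ± 0.051 (-0.36, SE 0.038, adjusted p = 0.0387), a change of -0.16 after cyclic loess. Of 14 sensors and early stress genes none passed. Ppp1r15b, a subunit of the phosphatase that reverses PERK signalling, had -0.43 (adjusted p = 0.0737), or -0.22 after cyclic loess and -0.19 with a common spread. Atf5, a factor related to ATF4, had -0.20 (adjusted p = 0.0866), which turned to 0.042 after cyclic loess and 0.13 with a common spread of the arrays.

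Quality control and degradation held 2 falls and 1 rise among 17 genes. Prkcsh, the beta subunit of glucosidase II, which trims the sugars read by calnexin and calreticulin, fell by 0.61 (SE 0.064, adjusted p = 0.0378). Edem2, a mannosidase factor that marks glycoproteins for degradation, fell by 0.22 (SE 0.016, adjusted p = 0.0236), with identical wild-type values. Man1b1, an alpha-mannosidase of the same route, rose by 0.24 (SE 0.026, adjusted p = 0.0409). Of 19 genes of collagen modification and export, Fkbp9, a prolyl isomerase related to Fkbp10, was the 1 call. It had 5.29 and 5.30 in the knockout pair, below wild-type values of 5.74 to 5.76, and fell by 0.46 (SE 0.019, adjusted p = 0.0138), and the next lowest p belonged to the prolyl 3-hydroxylase P3h2 (-0.58, adjusted p = 0.191). In the translocon and transport list the signal peptidase subunit Spcs2 fell by 0.72 (SE 0.068, adjusted p = 0.0339), the 1 call among 18 genes, and the coat protein gene Sec13 had -0.46 (adjusted p = 0.0700), or -0.27 under both scalings.

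Genes of the oxidative folding list, which also holds helpers such as Sil1, had no call among 13. Of the 6 lists theirs was the 1 with a median above 0, at 0.18 (0.081 after cyclic loess, 0.14 with a common spread of the arrays). All genes under the median signal had 0.065 (-0.028 after cyclic loess, -0.030 with a common spread). In the list 3 of 13 changes lay below 0, beside 51.1% of all genes and 3322 of the 9969 genes under the median signal. Wild-type means of the list ran from 3.60 to 5.99. Erp44, which retains proteins in the early secretory pathway, had a change of 0.61 (adjusted p = 0.0794), and Sil1, an exchange factor for BiP, had 0.25 (adjusted p = 0.135). None of these 95 genes passed after cyclic loess, with the arrays scaled, with the run as a block or with any 1 wild-type mouse left out, while the 7 called genes kept their direction under both scalings.

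**Figure D4:**
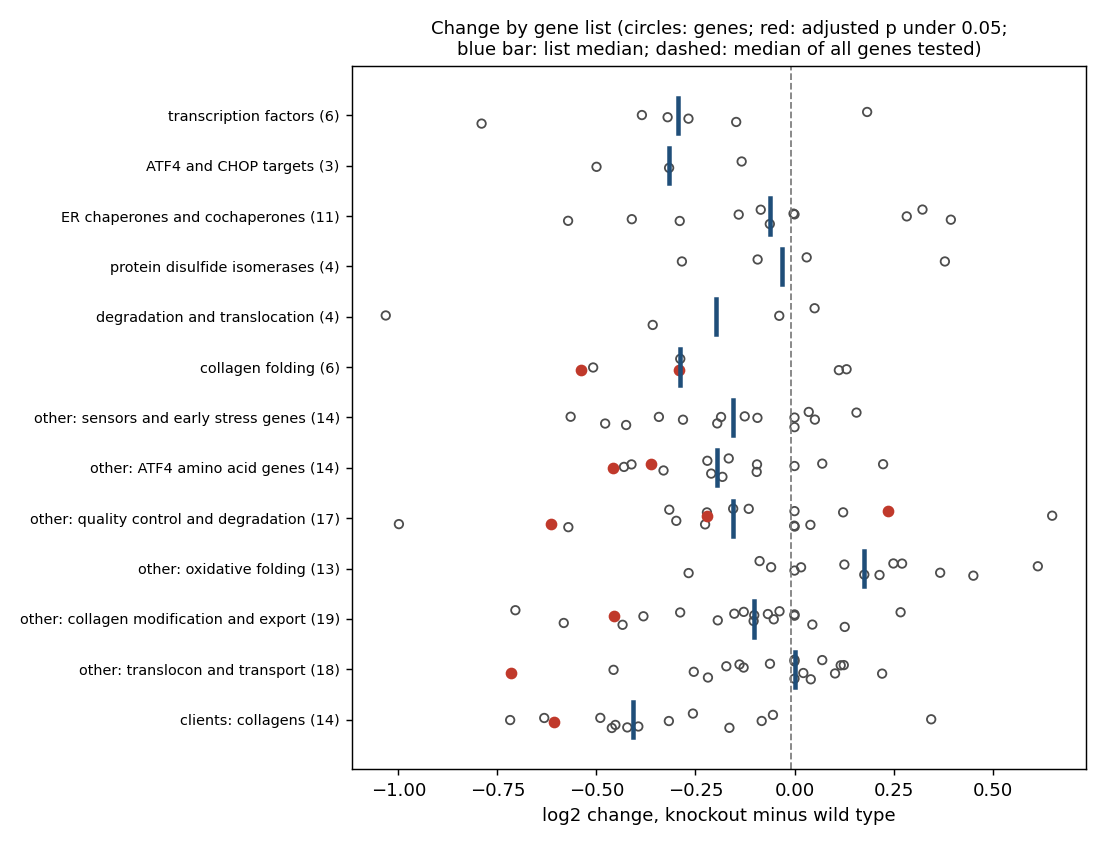
Change in log2 signal (horizontal axis) of each gene, by list (rows, with the number of genes measured), where red points passed an adjusted p of 0.05, blue bars are list medians and the dashed line is the median of all genes tested. Oxidative folding genes have a median of 0.18, and the collagens, the main clients of the collagen folding genes, have a median of -0.41.

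The collagens that these enzymes fold were listed as their clients. Of 14 collagen genes 13 had a change below 0, beside 51.1% of all genes and 69.0% of those at or above the median signal, with a median of -0.41 that was -0.17 after cyclic loess and -0.11 with a common spread of the arrays. Col9a3 fell by 0.61 (SE 0.067, adjusted p = 0.0422). Cyclic loess left -0.37 (adjusted p = 0.177), and a common spread left -0.30 (adjusted p = 0.269). Col2a1, the main collagen of cartilage, had -0.26 (adjusted p = 0.0690), which turned to 0.0016 after cyclic loess and 0.15 with a common spread. Of 12 chondrocyte markers all had a change below 0, beside 51.1% of all genes and 69.0% of those at or above the median signal. Their median of -0.31 was -0.22 after cyclic loess and -0.22 with a common spread, and Col2a1 lay above 0 in both. Sox9, Comp and Col9a3 fell, 3 of 12 beside 2.18% of all genes. None of these 3 passed after cyclic loess (adjusted p = 0.118, 0.163 and 0.177) or with a common spread (0.117, 0.192 and 0.269), and Comp went from -0.41 to -0.23 in both. The summed linear signal of 12 chondrocyte markers was 687 and 758 in knockout 2 and 5 against 888 to 905 in wild type. In both knockout mice 5 of 12 markers lay below wild type. For this and the following lists, the shares over all genes were 18.6% below and 13.0% above. Among genes at or above the median signal 29.5% lay below. Of the 9969 genes under the median signal 2106 lay above. For 9 skeletal muscle markers the sum was 460 and 522 against 581 to 623, with 3 of 9 below and a fall of Pygm (-0.62, adjusted p = 0.0442). For 6 endothelial markers it was 212 and 211 against 228 to 240, with 2 of 6 below. The 8 osteoblast and osteocyte markers summed to 416 and 524 against 516 to 524, and the 8 fibrous layer markers to 319 and 405 against 379 to 459, so that knockout 2 but not knockout 5 stood below wild type in both lists. Plasma and B cell markers, which would bring a strong secretory programme, summed to 342 and 317 against 303 to 321, with 2 of 8 markers above wild type in both knockout mice and 1 below. Tnfrsf17, with identical wild-type values, rose by 0.17 (adjusted p = 0.034, or 0.124 after cyclic loess and 0.178 with a common spread). Mzb1, a cochaperone of plasma cells, lay below wild type (-0.44, adjusted p = 0.187). Neutrophil and macrophage markers summed to 352 and 388 against 335 to 346, and osteoclast markers to 210 and 276 against 268 to 278. Mast cell markers summed to 181 and 205 against 186 to 190.1, with 3 of 7 above wild type in both knockout mice, 1 below and a rise of Ms4a2 (0.998, adjusted p = 0.0226). Ms4a2 is dim, with the same value of 3.31 in all wild-type mice. Adipocyte markers summed to 173 and 209.9 against 208 to 217, with a fall of Cidec (-1.01, adjusted p = 0.0231), and red cell markers to 179.6 and 158 against 179.7. Pygm, Ms4a2 and Cidec kept their direction but did not pass after cyclic loess (adjusted p = 0.0571, 0.0503 and 0.0503) or with a common spread (0.0684, 0.0530 and 0.0530). No marker was at 0, as RMA gives no zero, and in bulk tissue fewer cells of a type and less RNA per cell cannot be told apart. The part of these markers in the results on folding genes was not tested.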

How the data were processed

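The deposited values are log2 signals of 5 arrays, made by the authors with Affymetrix Expression Console and RMA (background correction, quantile normalisation, median polish), per the submitters' processing notes. Neither version nor build is stated (not given in the sources used here). Of 35556 rows, 21789 had 1 gene symbol, 1621 several and 12146 none in the platform annotation. The latter 2 kinds were left out. The number of arrays limits the precision, and p-values measure only the spread between these samples, which the labels give as separate mice.

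All 19938 genes were fitted with limma 3.58.1 in R 4.3.3 (lmFit, eBayes, two-sided, Benjamini-Hochberg over all genes, threshold 0.05). The fit was also run on simulated data, whose errors were independent, of equal spread on all arrays and free of ties. In the real data 87.3% of genes had at least 2 identical values, so the simulation does not check the fit on such values. No test was made over a list. Every member is named, and from each list of other pathway genes the 2 of lowest p. Collagens and markers are given by list, and Man1b1, Mzb1 and called markers were named after their values were seen. The members, lists, rule and alternatives were chosen with earlier results of these data known. Motifs were searched in RefSeq promoters. The groups share no replicate number.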

Additional observations from a re-analysis of the deposited data

How the results depend on the processing

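Counts depended on the array run, on scaling and on single arrays. Genes past the threshold numbered 744, and 0 with the array run as a block, after cyclic loess or with arrays centred and scaled (3829, 4155 and 3815 at an unadjusted p under 0.05 in limma), 446 without dim genes and 0 to 9999 with an array left out. The members' count of 2 became 0 with the run as a block, after cyclic loess, with arrays centred or with arrays centred and scaled (10, 10, 12 and 9 at an unadjusted p under 0.05). It was 1 with a variance trend and 1 without genes of identical wild-type values, where 24 members were tested, and 0 to 15 with an array left out. It was 0 without wild type 3, 4 or 6, and 12 or 15 without knockout 2 or 5, where the lone knockout array is assumed to vary like wild type. The other pathway genes went from 7 to 0 with the run as a block, with arrays centred and scaled and after cyclic loess (19, 22 and 22 at an unadjusted p under 0.05), to 4 without genes of identical wild-type values, and to 0 to 46 with an array left out.

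The members' median of -0.14 was -0.29 without dim genes, where 20 members were tested, -0.21 without genes of identical wild-type values and -0.19 to -0.029 with an array left out. The collagen folding median of -0.29 was -0.13 after cyclic loess, -0.13 with arrays centred and scaled, -0.51 over the 3 genes without identical wild-type values and -0.36 to -0.20 with an array left out. The stress-response median of -0.14 was -0.087 with arrays centred and scaled, -0.29 without dim genes and -0.16 to -0.0096 with an array left out.

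Single genes changed sign in 18 of 418 values over 13 alternatives. After cyclic loess these were Hspa5 (0.014), Dnajb9 (-0.34), Sdf2l1 (0.024), Creld2 (0.050), Pdia4 (-0.019) and Sel1l (0.0054), and with arrays centred and scaled Chac1 (0.037), Dnajb9 (-0.078), Sdf2l1 (0.037), Creld2 (0.030), Pdia4 (-0.051) and Edem1 (-0.019). With an array left out Chac1 ranged from -0.67 to 0.038, Hspa5 from -0.67 to 0.50, P4hb from -0.81 to 0.24, Canx from -0.22 to 0.22 and Pdia4 from -0.052 to 0.11. The causes were not tested. No paired analysis was possible because the groups share no replicate number, and the array run served as the block instead. Signal over background was not given, so how dim genes limit these values is unknown.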
